A study of Polistes metricus with 16 samples.

Results

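The transcripts described here are the most abundant one in heads of Polistes metricus larvae, PmetTSAr1.1-000002, and the 99 that followed its level most closely from larva to larva, 100 of the 74517 assembled transcripts in all. They were chosen by measured values. Among the 14170 transcripts with a mean of at least 5 CPM (a transcript's counts scaled to a common library size, with totals adjusted by TMM factors), the 99 with the highest Pearson correlation with PmetTSAr1.1-000002 over all 16 larvae, on log2(CPM + 0.5), were taken as its partners. Correlations, levels and spread among these larvae therefore describe the choice, and only differences between groups are tested below. Transcripts are given by their identifiers alone, and gene names, sequences and functions were not used here.

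Each library came from the head of 1 female larva in the 5th instar, and the 4 groups held 4 larvae apiece. Worker-reared larvae, on the path to becoming queens, were collected in Iowa field nests in late summer of 2010. Foundress-reared larvae, on the path to becoming workers, were collected at that site in late spring of 2010, so the season and the rearing caste of these larvae cannot be told apart. Nests of a North Carolina population held in the laboratory in 2009 gave restricted larvae, whose nests received a worm as protein every 3 days, and ad libitum larvae, whose nests received 1 every day. Field and laboratory larvae thus differed in year, place, origin and housing together. No label states the age or weight of a larva within the instar, or whether larvae of a group shared a nest, so the p-values rest on the spread from larva to larva as sampled.

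In paper wasps the sister larvae of a colony can develop into workers or into queens, and food received during larval life is thought to take part in that decision. Larvae of the last instar feed, release saliva to the adults that tend them, and finally spin the silk cap under which they pupate, with large glands that open at the mouth. A head library samples all tissues of the head together. Transcripts that rise and fall together over larvae are called co-varying, and co-variation alone names neither a shared cell type nor a shared regulator.

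The libraries held from 28359372 to 37626473 counts. Every one of the 100 transcripts had counts in each larva, and 8 had under 10 counts in at least 1 larva. All 100 passed the filter on low counts that preceded the edgeR tests. Markers of silk gland, muscle, nervous tissue, fat body and blood cells could not be read without gene names, so neither the tissue nor the makeup of a head was checked.

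PmetTSAr1.1-000002 differed between larvae by more than 2 orders of magnitude. In worker-reared larvae its level was 13276, 14401, 301 and 7309 CPM in replicates 1 to 4. In foundress-reared larvae it was 6373, 41494, 16402 and 162850 CPM. Worker-reared replicate 3 was far below every other larva, and foundress-reared replicate 4 was the highest of all. Restricted larvae had 37268, 62372, 3440 and 3173 CPM, and ad libitum larvae 34273, 18898, 135118 and 12960 CPM. The 4 groups overlapped, and each held larvae at least several-fold apart. The highest larva was 539-fold above the lowest, a ratio that became 51.3-fold without worker-reared replicate 3 and 277-fold when unadjusted library totals were used. In whole heads, fewer cells of a type and less RNA per cell cannot be told apart.

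**Figure D1:**
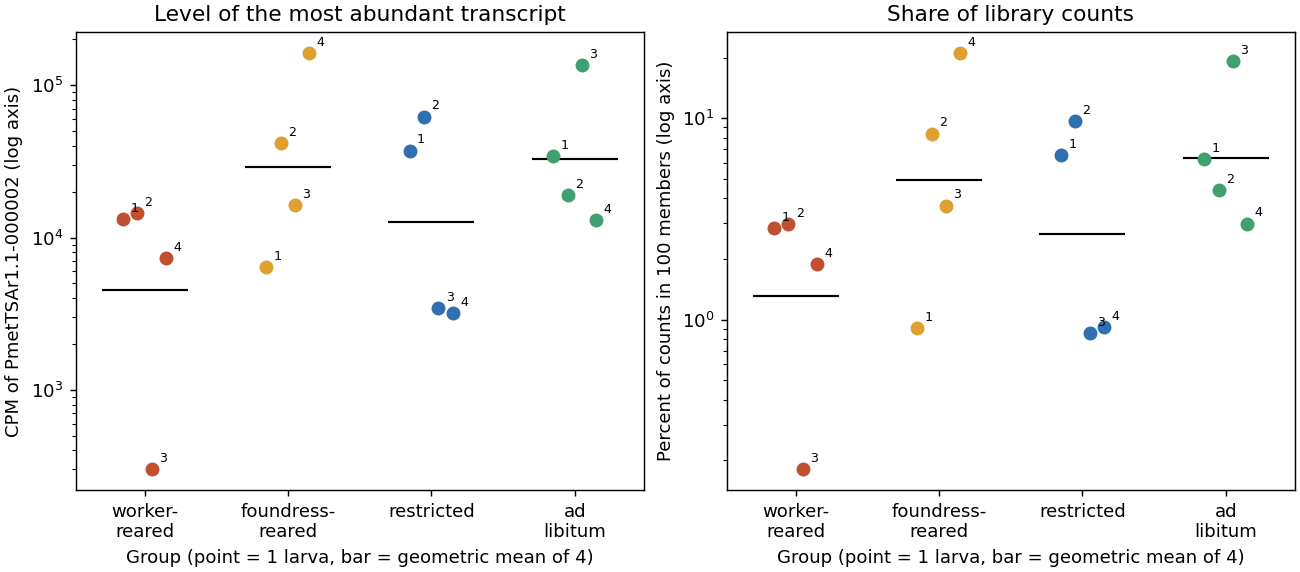
Left, CPM of PmetTSAr1.1-000002, and right, the percent of library counts held by the 100 transcripts, both on log axes, by group; points are single larvae with their replicate number and bars are geometric means of 4. Foundress-reared replicate 4 (162850 CPM) and ad libitum replicate 3 (135118 CPM) lie at the top and worker-reared replicate 3 (301 CPM) at the bottom.

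This single transcript took from 0.0407% of a library's counts in worker-reared replicate 3 to 11.3% in foundress-reared replicate 4. The 100 transcripts together took 2.85%, 2.99%, 0.181% and 1.88% of counts in worker-reared replicates 1 to 4, and 0.908%, 8.39%, 3.69% and 21.1% in foundress-reared larvae. They took 6.53%, 9.64%, 0.855% and 0.916% in restricted larvae, and 6.25%, 4.41%, 19.3% and 2.99% in ad libitum larvae. About a 117-fold range separated the larva with the largest share from that with the smallest. For the share of 0.181% the Wilson 95% interval ran from 0.179% to 0.182%, and for that of 21.1% from 21.07% to 21.1%, which covers counting error only. Most of the share lay in the 4 most abundant of the 100, which held a median of 86.5% of their counts. That portion was lowest, at 36.2%, in the larva with the smallest share, and highest, at 93.6%, in restricted replicate 2.

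Correlation with PmetTSAr1.1-000002 among the 99 partners ran from 0.824 to almost 1, with a median of 0.876. Of all transcripts with at least 5 CPM, 30 exceeded 0.9, 6 exceeded 0.95 and 2 exceeded 0.99. The median over the remaining transcripts was -0.006, and 13 lay under -0.8. The limit of the choice fell in a continuous range. The last partners inside it were PmetTSAr1.1-003449 and PmetTSAr1.1-004116 (correlations 0.825 and 0.824), and the first outside it were PmetTSAr1.1-003946 and PmetTSAr1.1-000423 (0.824 and 0.823). By rank the association was similar, with a median Spearman coefficient of 0.853 (0.709 to 0.997). When each level was taken less its group mean, the median Pearson coefficient, pooled over the 4 groups, was 0.868. It was read in the larvae used for the choice, so it too is a description.

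The partners were mostly not abundant transcripts. Their median mean level was 23.6 CPM, close to the 20.8 CPM of the remaining transcripts of at least 5 CPM. Only 6 of the 100 were among the 100 most abundant of all transcripts, and 87 ranked below 1000th. The others of the 6 were PmetTSAr1.1-000005 (second in abundance, 14152 CPM), PmetTSAr1.1-000037 (7th, 7923 CPM), PmetTSAr1.1-014839 (18th, 4441 CPM), PmetTSAr1.1-000197 (71st, 1252 CPM) and PmetTSAr1.1-000229 (85th, 1030 CPM). These levels are not scaled for transcript length, which the table does not give, so they rank counts and not molecules.

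A pair of partners moved almost in lockstep with PmetTSAr1.1-000002. PmetTSAr1.1-000005 had a correlation of 0.9996 with it, and the larvae spanned 125 to 64572 CPM. For every 100 counts of PmetTSAr1.1-000002, a library held 37.5 (worker-reared replicate 2) to 43.7 (worker-reared replicate 1) counts of PmetTSAr1.1-000005. The ratio stayed within 1.17-fold while PmetTSAr1.1-000005 ranged 513-fold. The ratios of single larvae still differed beyond counting error, with Wilson 95% intervals of 37.3 to 37.7 and 43.5 to 44.0 in those libraries. Both ends of this small range lay in worker-reared larvae.

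PmetTSAr1.1-014839 had a correlation of 0.997 and spanned 43.9 to 18796 CPM. Its counts per 100 of PmetTSAr1.1-000002 were 11.4 in restricted replicate 1 and 16.9 in restricted replicate 4. In the 3 larvae with the lowest PmetTSAr1.1-000002 the value was 14.6 (worker-reared replicate 3), 16.9 (restricted replicate 4) and 16.2 (restricted replicate 3). It was 11.5 and 13.9 in the 2 highest larvae, so the proportion did not follow one order over the whole range. Ratios of counts inside a library do not depend on scaling factors. Whether these 3 identifiers share sequence, and with it reads, was not tested.

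The next closest partners were of low to middling abundance. PmetTSAr1.1-001982 (correlation 0.961) measured 2.84 CPM in worker-reared replicate 3 and 108 CPM in foundress-reared replicate 4, with 7.59 to 85.9 CPM in the other larvae. PmetTSAr1.1-001352 (0.955) measured 0.584 CPM and 203 CPM in the same pair of larvae, and PmetTSAr1.1-003688 (0.955) 4.53 CPM and 214 CPM. In all 3 the lowest and the highest larva were the lowest and the highest of PmetTSAr1.1-000002.

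Correlation does not fix how steeply a partner followed, and the steepness differed widely. The slope on the log2 scale, where 1 means a change in proportion, had a median of 0.514. It was under 0.25 in 13 partners, from 0.25 to 0.5 in 32, from 0.5 to 0.75 in 39, from 0.75 to 1 in 13, and over 1 in 2. Most partners therefore changed less than in proportion to PmetTSAr1.1-000002. The ratio of the highest to the lowest larva, on CPM + 0.5, was 30.5-fold in the median partner, against 2.3-fold in the median of the remaining transcripts. It was at least 10-fold in 75 of 99 partners (9.97% of all transcripts of at least 5 CPM) and at least 100-fold in 22 (2.36%). With unadjusted library totals the median over the 100 fell from 30.6-fold to 17.5-fold, with a pseudocount of 2 to 17.3-fold, and without worker-reared replicate 3 to 17.1-fold.

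PmetTSAr1.1-000037 was the steepest, with a slope of 1.32 and a 2645-fold range, while its correlation of 0.876 was the median of the partners. It measured 355, 3868, 13.4 and 3817 CPM in worker-reared larvae, and 116, 26141, 1710 and 32268 CPM in foundress-reared larvae. Restricted larvae had 8965, 10092, 533 and 65.6 CPM, and ad libitum larvae 1451, 411, 36696 and 268 CPM. Per count of PmetTSAr1.1-000002 it varied 34.7-fold, from 0.0182 in foundress-reared replicate 1 to 0.630 in foundress-reared replicate 2. Its level thus differed severalfold between larvae in which PmetTSAr1.1-000002 was nearly equal, such as worker-reared replicates 1 and 2.

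PmetTSAr1.1-000411 and PmetTSAr1.1-012297 were also steep, with slopes of 1.02 and 0.94. PmetTSAr1.1-012297 measured 44.8, 106, 7.76 and 120 CPM in worker-reared, 62.4, 740, 196 and 1860 CPM in foundress-reared, 268, 294, 29.6 and 24.1 CPM in restricted, and 319, 174, 3009 and 119 CPM in ad libitum larvae. Ad libitum replicate 3 was its highest larva, 1.62-fold above foundress-reared replicate 4, and PmetTSAr1.1-000411 differed between them by 1.74-fold in the same direction. PmetTSAr1.1-000197 (58.9 to 5501 CPM) and PmetTSAr1.1-000229 (165 to 4297 CPM) were abundant but less steep, with slopes of 0.70 and 0.54.

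**Figure D2:**
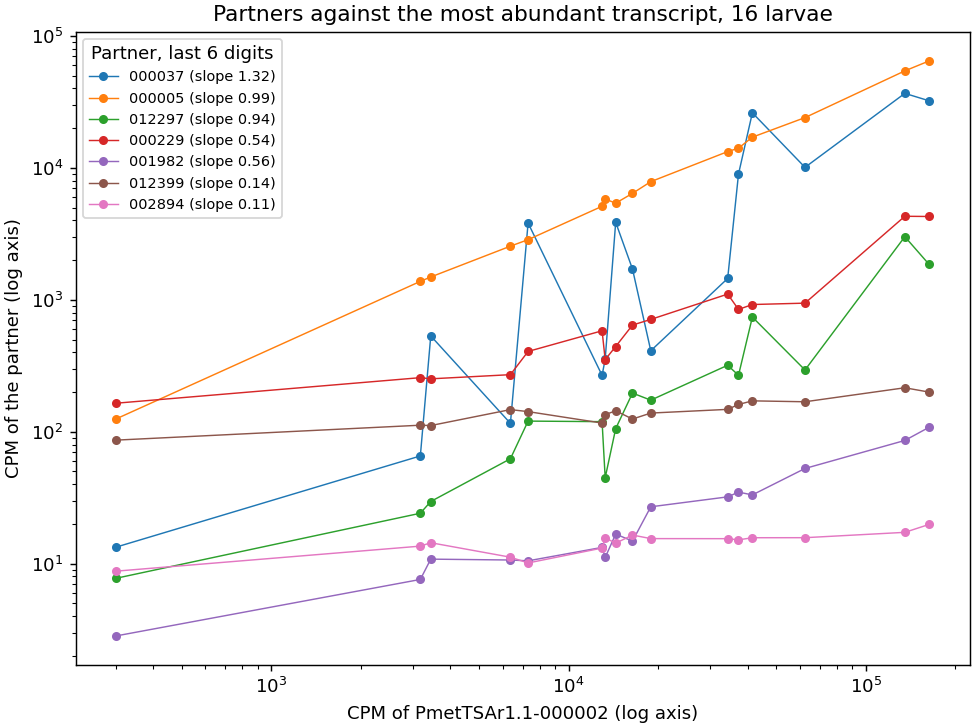
CPM of 7 partners against CPM of PmetTSAr1.1-000002 in the 16 larvae, on log axes; points are larvae, joined in the order of PmetTSAr1.1-000002. PmetTSAr1.1-000005 forms a straight line, PmetTSAr1.1-000037 scatters about a steeper one, and PmetTSAr1.1-012399 and PmetTSAr1.1-002894 are nearly level.

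At the other end were partners whose level changed little. PmetTSAr1.1-002894 had the narrowest range, from 8.78 to 19.8 CPM (2.19-fold), followed by PmetTSAr1.1-012399 (86.4 to 215 CPM, 2.48-fold) and PmetTSAr1.1-001228 (48.2 to 133 CPM, 2.74-fold). PmetTSAr1.1-021954 (3.84 to 11.4 CPM, 2.74-fold) and PmetTSAr1.1-020221 (3.17 to 10.6 CPM, 3.03-fold) completed the 5 narrowest. All 5 were lowest in worker-reared replicate 3.

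These narrow partners depended on the scaling. The TMM factor itself ranged 2.08-fold over the libraries, from 0.649 to 1.35, and its log2 correlated at -0.622 with the log2 level of PmetTSAr1.1-000002. All 13 partners with a range under 5-fold left the list when unadjusted library totals were used, and their correlation with PmetTSAr1.1-000002 was then 0.222 to 0.731. For PmetTSAr1.1-002894 it went from 0.838 to 0.222, and for PmetTSAr1.1-012399 from 0.925 to 0.581. Of the 86 wider partners, 82 stayed, with correlations of 0.745 or more for all 86. The association of the 13 is therefore a statement about TMM-scaled levels, while that of the 82 was found on both scales. A link to the TMM factor was not confined to the 13. The median correlation with its log2 was -0.520 in the 13 and -0.698 in the 86. Over all transcripts of at least 5 CPM it was -0.072.

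The 100 transcripts marked the same larvae as extremes. The choice by correlation with PmetTSAr1.1-000002 favours its own extreme larvae, so these counts describe the choice. Worker-reared replicate 3 was the lowest larva for 92 of them, against 15.8% of all transcripts of at least 5 CPM. Restricted replicate 4 was the lowest for 5 (6.28% of all) and restricted replicate 3 for 3 (13.5%). Foundress-reared replicate 4 was the highest for 57 (6.26%) and ad libitum replicate 3 for 38 (7.03%). These last 2 larvae filled both top places in 85. The direct comparison of this top pair varied by transcript. PmetTSAr1.1-007958 was 3.67-fold and PmetTSAr1.1-003029 3.31-fold higher in foundress-reared replicate 4, while PmetTSAr1.1-029828 was 3.76-fold and PmetTSAr1.1-018779 2.98-fold higher in ad libitum replicate 3, and 89 of the 100 were within 2-fold.

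**Figure D3:**
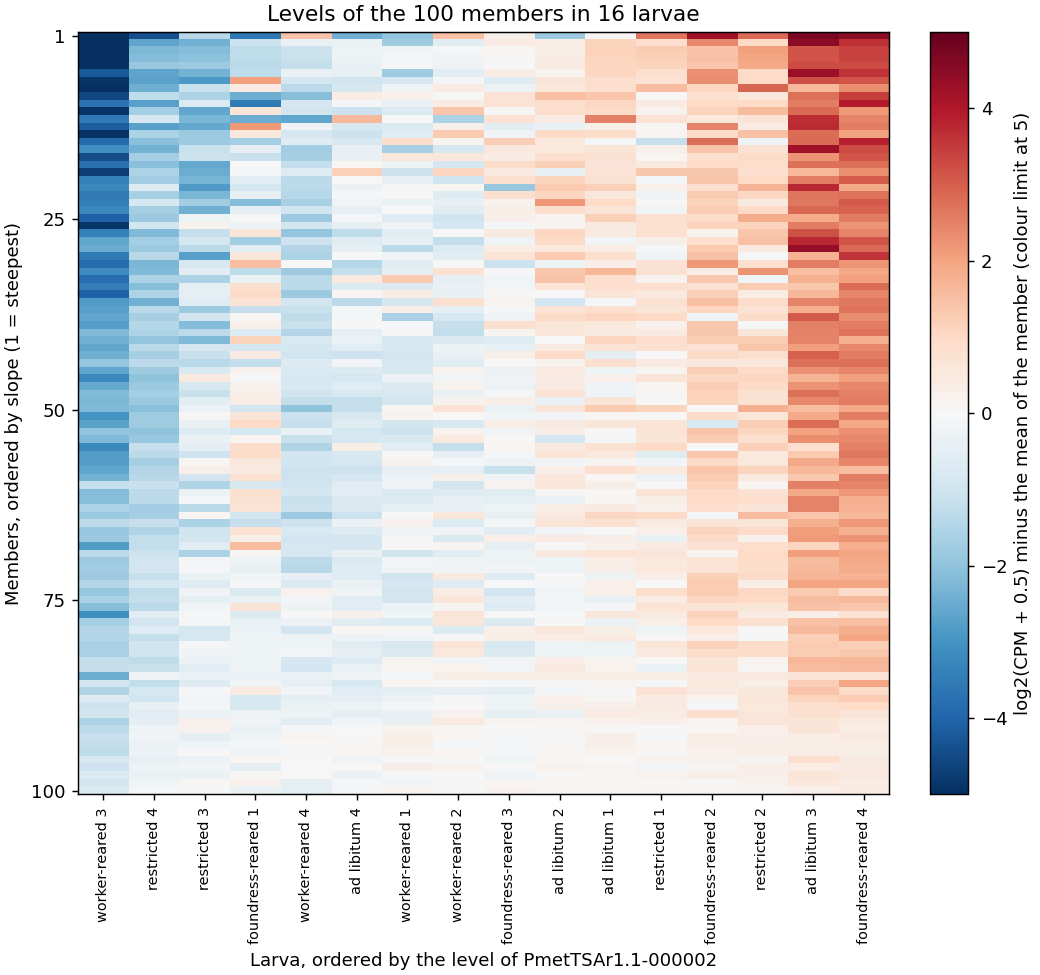
Level of each of the 100 transcripts in each larva, as log2(CPM + 0.5) less the mean of the transcript; rows run from the steepest slope (1.32) to the shallowest (0.11) and columns follow the level of PmetTSAr1.1-000002. Worker-reared replicate 3 is low in nearly all rows and the 2 columns at the right are high, with colour fading down the rows as the slope declines.

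Among themselves the 100 transcripts correlated with a median coefficient of 0.838 over 4950 pairs, and the lowest pair had 0.487. A tighter structure lay within them. At a pair correlation over 0.98, a level set after the values had been seen, 30 of the 100 fell into 11 groups of 2 to 5 and the other 70 stood alone. One group held PmetTSAr1.1-000002, PmetTSAr1.1-000005 and PmetTSAr1.1-014839, and no other transcript joined these. A second held 4 of low level and near-equal slope (0.70 to 0.74), PmetTSAr1.1-004602, PmetTSAr1.1-006150, PmetTSAr1.1-006475 and PmetTSAr1.1-021404, with means of 10.6 to 16.7 CPM. PmetTSAr1.1-000411 and PmetTSAr1.1-012297 formed a pair (0.996), as did PmetTSAr1.1-002156 and PmetTSAr1.1-018779 (0.991), both of them far higher in ad libitum replicate 3 than elsewhere in their group (419 and 120 CPM).

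Some of the close pairs had neighbouring identifiers. The 100 contained 6 pairs of consecutive numbers and no longer run. PmetTSAr1.1-014306 and PmetTSAr1.1-014307 correlated at 0.999, with 4.01 and 3.69 CPM in worker-reared replicate 3 and 137 and 138 CPM in foundress-reared replicate 4. PmetTSAr1.1-007295 and PmetTSAr1.1-007296 did so at 0.998, PmetTSAr1.1-000587 and PmetTSAr1.1-000588 at 0.998, and PmetTSAr1.1-004115 and PmetTSAr1.1-004116 at 0.995. PmetTSAr1.1-001286 and PmetTSAr1.1-001287 (0.979, means of 30.2 and 31.2 CPM) and PmetTSAr1.1-004807 and PmetTSAr1.1-004808 (0.956) were less close. Over all consecutive pairs of transcripts of at least 5 CPM the median was 0.167, and 3.45% exceeded 0.98, which 4 of the 6 pairs did. Whether such pairs are parts of 1 gene was not tested, so the 100 are not counted as 100 genes.

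The choice used all larvae, and partners were therefore chosen anew in the 8 field larvae alone and read in the 8 laboratory larvae, whose correlations were not used in that choice, and the reverse. The minimum of 5 CPM and the TMM factors still came from all 16 larvae, so the larvae read were not wholly apart from the choice. The 99 closest partners in the field had a median correlation of 0.705 with PmetTSAr1.1-000002 in the laboratory larvae, with 90 of 99 positive and 50 (50.5%) over 0.7. Over all transcripts of at least 5 CPM the median there was -0.0203 and 5.31% exceeded 0.7. The 99 chosen in the laboratory larvae had a median of 0.799 in the field larvae, with 95 positive and 64 (64.6%) over 0.7, against a median of 0.0491 and 6.86% over all. Correlations over 8 larvae are imprecise, and the lowest values read were -0.633 and -0.839. Levels were TMM-scaled in both sets, and no reading with unadjusted totals is given. Some partners that depended on the scaling were among those over 0.7, such as PmetTSAr1.1-012399 (0.950 in laboratory and 0.936 in field larvae). The part of the TMM factor in these readings was not tested.

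**Figure D4:**
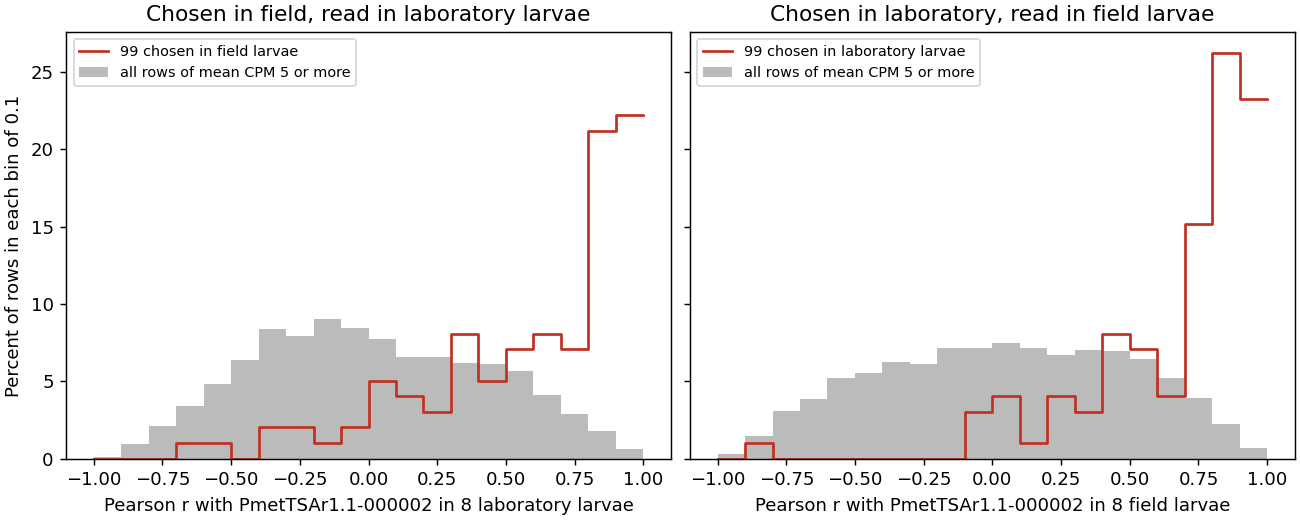
Distribution of the Pearson correlation with PmetTSAr1.1-000002 in larvae whose correlations were not used in the choice, for the 99 partners chosen in the other 8 larvae (line) and for all transcripts of at least 5 CPM (bars), as percent per bin. The lines peak above 0.7, with medians of 0.705 in laboratory and 0.799 in field larvae, where all transcripts centre near 0. Levels are TMM-scaled.

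The lists from field and laboratory larvae shared 23 transcripts (23.2% of each), and all 23 were among the 99 partners. They included the 5 closest partners named above as well as PmetTSAr1.1-000411, PmetTSAr1.1-012297, PmetTSAr1.1-006150, PmetTSAr1.1-021404, PmetTSAr1.1-006475 and PmetTSAr1.1-004602. PmetTSAr1.1-000005 was first and PmetTSAr1.1-014839 second in both lists. PmetTSAr1.1-012399, PmetTSAr1.1-004807 and PmetTSAr1.1-012401, which left the partners with unadjusted totals, were also among the 23. When the choice was repeated without each larva in turn, from 70 to 98 of the 99 partners were found again, and 51 were found in all 16 repeats. Fewest returned without restricted replicate 3 (70), worker-reared replicate 3 (73) and foundress-reared replicate 1 (77).

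Composition of the rest of the library moved with the share held by the 100 transcripts. The 100 transcripts were chosen from levels in these same libraries, so correlations of their share with library measures are a description and carry no test. The 100 most abundant other transcripts took 15.6% to 33.5% of the remaining counts. With the share this percentage had Pearson r = 0.715 and Spearman rho = 0.65 over 16 larvae. Its r was 0.617 without the 2 libraries farthest from the median, 0.626 within field and 0.856 within laboratory larvae. The TMM factor, which entered the levels used in the choice and is therefore given as a description, had r = -0.661 and rho = -0.521 with the share, and r = -0.828 without the 2 farthest, -0.553 in field and -0.850 in laboratory larvae. Libraries with a larger share in the 100 transcripts thus tended to hold more of their remaining counts in the most abundant other transcripts, with exceptions. Foundress-reared replicate 1 held 31.5% of its remaining counts there with a share of 0.908%, and restricted replicate 3 held 24.7% with 0.855%.

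The number of transcripts with at least 1 count, 53148 to 62026, had r = -0.530 and rho = -0.491 with the share. Its r was -0.600 without the 2 farthest, -0.577 within field and -0.692 within laboratory larvae. The total count had r = -0.075 and rho = -0.312. Its r was 0.168 without the 2 farthest, -0.180 in field and 0.197 in laboratory larvae. The part of these library measures in the levels reported here was not tested.

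The caste comparison asks how queen-destined and worker-destined larvae differ. All 100 transcripts had a fitted level below that of foundress-reared larvae in worker-reared larvae, where 49.9% of the 36337 tested transcripts did. The median log2 fold change was -1.98. No member was called by edgeR at an adjusted p under 0.05 (0.044% of all tested were), and 60 of 100 had an unadjusted p under 0.05 (16.1% of all tested), all of them lower in worker-reared larvae (8.65% of all tested were). DESeq2 called 13 (2.69% of all). The 100 were chosen for varying alike, so these are not 100 separate readings.

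For PmetTSAr1.1-000002 itself the fitted difference was 6.44-fold (log2 fold change -2.69 with an SE of 1.31; adjusted p = 0.331 by edgeR). On log2(CPM + 0.5) worker-reared larvae averaged 12.1 ± 2.64 and foundress-reared larvae 14.8 ± 1.99 (SD, n = 4 each; two-sided exact permutation p = 0.171, adjusted p = 0.4 over 4 tests, where 0.0286 is the smallest possible p). The share of counts in the 100 transcripts was 1.97% ± 1.29 against 8.52% ± 8.93 (SD, n = 4 each; exact permutation p = 0.2, adjusted p = 0.4). Neither difference passed the test. The share sums transcripts chosen in these larvae for following PmetTSAr1.1-000002, so the tests of level and share are not separate readings. The difference in share was -6.54 percentage points with all larvae, -9.08 without foundress-reared replicate 1 (exact permutation p = 0.0286) and -2.35 without foundress-reared replicate 4 (exact permutation p = 0.343). The difference in the log2 level was -2.68 with all larvae and -1.37 without worker-reared replicate 3 (exact permutation p = 0.343). The p-values without 1 larva were not adjusted and rest on fewer assignments than those with all larvae.

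The smallest p in this comparison belonged to transcripts less tightly tied to PmetTSAr1.1-000002. PmetTSAr1.1-003029 measured 40.5, 25.2, 5.92 and 20.2 CPM in worker-reared larvae and 110, 60.3, 63.7 and 337 CPM in foundress-reared larvae, which do not overlap (log2 fold change -2.64 with an SE of 0.686; adjusted p = 0.125 by edgeR). PmetTSAr1.1-007958 measured 13.1, 10.05, 0.834 and 4.58 CPM against 22.8, 42.2, 24.05 and 186 CPM, also without overlap (log2 fold change -3.27 with an SE of 0.91; adjusted p = 0.137 by edgeR). Levels did not overlap in 20 of the 100 transcripts and in 9.41% of all tested. Without foundress-reared replicate 4, 10 of 100 had an unadjusted p under 0.05, below the 12.9% of all tested in that fit, and the median log2 fold change was -1.16. Without worker-reared replicate 3 the count was 28 (11.5% of all tested) and the median -1.66, and without worker-reared replicate 4 they were 32 (11.9% of all tested) and -1.85.

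The nutrition comparison asks how ad libitum and restricted larvae differ. Fitted levels were above those of restricted larvae in ad libitum larvae for 97 of the 100 (49.9% of all tested), with a median log2 fold change of 0.92. No member was called by edgeR, as none of all tested was (0%), and 11 had an unadjusted p under 0.05 (13.6% of all tested), all of them higher in ad libitum larvae (6.01% of all tested were). DESeq2 called 0 of the 100 and 1.33% of all. The 11 are below the share over all tested with both directions pooled and above the share in their own direction. PmetTSAr1.1-000002 had a log2 fold change of 0.92 with an SE of 1.24 (adjusted p = 0.758 by edgeR). Without ad libitum replicate 3 the sign of its fitted value changed (-0.27), while the difference of its mean log2 levels stayed above 0 (0.69). The median of the 100 then became 0.074, with 43 of them below 0.

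On log2(CPM + 0.5), PmetTSAr1.1-000002 averaged 15.0 ± 1.48 in ad libitum and 13.6 ± 2.25 in restricted larvae (SD, n = 4 each; exact permutation p = 0.314, adjusted p = 0.419). The share of counts was 8.24% ± 7.5 against 4.49% ± 4.35 (SD, n = 4 each; exact permutation p = 0.486, adjusted p = 0.486). This difference of 3.75 percentage points was 0.0625 without ad libitum replicate 3 (exact permutation p = 0.914). PmetTSAr1.1-018779, with the smallest p, measured 6.78, 7.72, 120 and 3.64 CPM in ad libitum and 4.85, 7.45, 1.69 and 1.06 CPM in restricted larvae, so that replicate 3 of the ad libitum larvae stood far above the rest (log2 fold change 3.2 with an SE of 1.16; adjusted p = 0.274 by edgeR). PmetTSAr1.1-006666 measured 11.3, 13.6, 28.6 and 9.62 CPM against 7.8, 8.81, 4.63 and 5.56 CPM, without overlap (log2 fold change 1.24 with an SE of 0.481; adjusted p = 0.3 by edgeR). Levels did not overlap in 3 of the 100, against 5.29% of all tested. The 11 unadjusted p values under 0.05 became 0 without ad libitum replicate 3 (15.1% of all tested in that fit), 1 without restricted replicate 3 (10.6%) and 7 without foundress-reared replicate 2 (12.5%), all below the share over all tested. They became 18 without ad libitum replicate 4 (10.5%) and 19 without restricted replicate 2 (7.97%), both above it. Without restricted replicate 4 there was 1 (26.6%), and none of the 100 was called, although 3016 of all tested transcripts were then called.

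**Figure D5:**
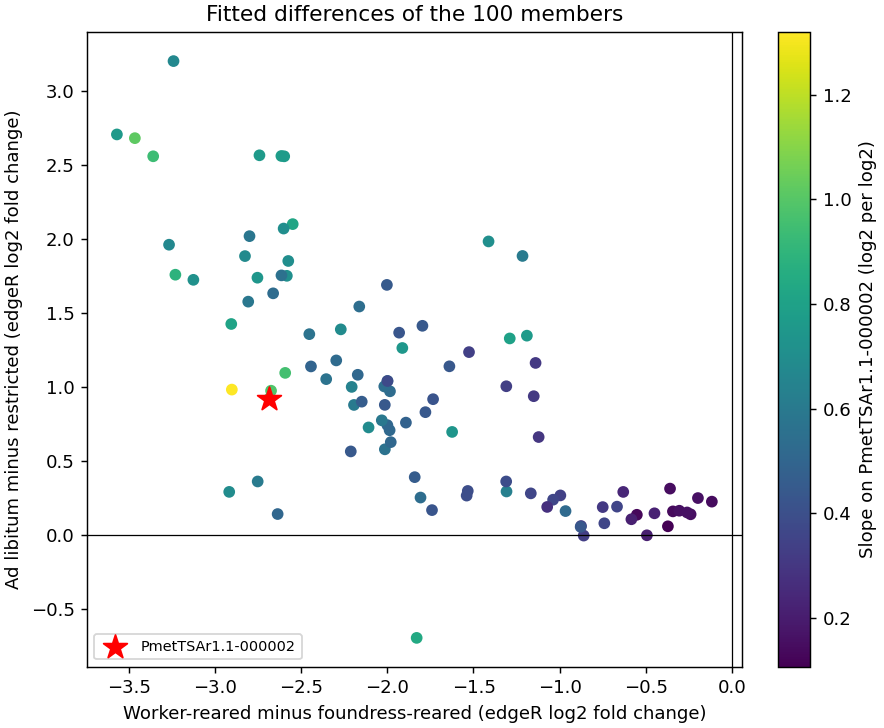
Fitted log2 fold change of each of the 100 transcripts between ad libitum and restricted larvae against that between worker-reared and foundress-reared larvae, coloured by slope on PmetTSAr1.1-000002 (star). All 100 points lie left of 0 and 97 lie above 0, the shallow ones closest to the origin, and none was called in either comparison by edgeR. Without ad libitum replicate 3, 43 of the 100 nutrition values were below 0.

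The test of the difference between the caste and nutrition fold changes called none of the 100 with edgeR, against 0.548% of all tested, while 58 had an unadjusted p under 0.05 (19.2% of all tested), all with a difference below 0 (9.41%), and DESeq2 called 35 (5.98% of all). All 100 differences were below 0 (50.1% of all tested), with a median of -2.79. For 97 of them this sign follows from a caste value below 0 and a nutrition value above 0. It is therefore not a further result, and the 100 are not separate readings. The smallest adjusted p values were 0.0628 for PmetTSAr1.1-007958 (log2 difference -5.23, SE 1.25, edgeR) and 0.0655 for PmetTSAr1.1-006666 (-2.76, SE 0.683, edgeR). For PmetTSAr1.1-000002 the log2 difference was -3.61 (SE 1.79, edgeR adjusted p = 0.29). Without restricted replicate 4, PmetTSAr1.1-002156, PmetTSAr1.1-006666 and PmetTSAr1.1-007958 passed (edgeR adjusted p = 0.0481, 0.0423 and 0.0418). In that fit 3117 of all 37128 tested transcripts were called, a larger share than the 3 of the 100. Without ad libitum replicate 3, 35 of the 100 had an unadjusted p under 0.05 (17.4% of all tested in that fit), and the median was -1.97.

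Between field and laboratory larvae the median log2 fold change was -0.24 with 82 of 100 below 0 (51.4% of all tested), none was called by edgeR (0.98% of all tested) or DESeq2 (3.18% of all), and 1 had an unadjusted p under 0.05 (15.6% of all tested, 8.67% lower in field larvae). That 1 was PmetTSAr1.1-007595, with 0.271 to 23.0 CPM in field and 0.995 to 38.8 CPM in laboratory larvae (log2 fold change -1.41 with an SE of 0.645; adjusted p = 0.313 by edgeR). PmetTSAr1.1-005977 came next, with a log2 fold change of -1.44 with an SE of 0.754 (adjusted p = 0.374 by edgeR). The levels of field and laboratory larvae overlapped in all 100, and 0.482% of all tested had levels without overlap. The median became 0.10 without ad libitum replicate 3, and 11 had an unadjusted p under 0.05 without foundress-reared replicate 4, below the 14.2% of all tested in that fit.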

How the data were processed

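The deposited file holds whole-number counts per assembled transcript in 16 columns, 1 per larva, each matched to a sample by its code in the labels. The submitters' processing notes name Bowtie2 and eXpress. Which kind of eXpress count was deposited, versions, assembly, strand handling and filters were not given in the sources used here, so reads shared by similar transcripts may be split or counted more than once. Per the labels' protocols, libraries were made with an Illumina TruSeq kit. TMM factors were computed after filterByExpr by group, which left 36337 of 74517 transcripts. edgeR 4.0.16 (R 4.3.3) quasi-likelihood F tests with Benjamini-Hochberg adjustment used 1 model of 4 group means over 16 libraries; a call is an adjusted p under 0.05. SEs were derived from the fitted log2 fold change and its F statistic. DESeq2 1.42.0, RLE scaling, no filter, the 8 libraries of a pair alone and omission of each library were alternatives; the fit and the choice were tested on simulated data. Correlations and exact permutation tests (70 assignments, fewer where 1 library was left out) used Python 3.11.15, NumPy 2.4.6 and SciPy 1.17.1. Named transcripts are PmetTSAr1.1-000002, the 5 partners of highest correlation, of highest mean, of widest and of narrowest range, the 2 on each side of the limit, consecutive identifiers, and the 2 smallest p values per comparison; others, among them those of the tight groups, were chosen after their values were seen. Members, lists and alternatives were chosen with earlier results of these data known. Marker lists for storage proteins, silk gland, muscle, nervous tissue, blood cells and cuticle could not be run without gene names. Replicate numbers follow the order of the records.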

Additional observations from a re-analysis of the deposited data

Results flagged for a closer look

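In 144 groups of 4 values examined on a log2 scale, 5 had 1 value well apart from the rest; about 7.2 are expected by chance. Worker-reared replicate 3 accounted for 3 of them. The share of counts held by the 100 transcripts, as log2 of the percent, was -2.47 there against 0.91 to 1.58 in the other worker-reared larvae. PmetTSAr1.1-012399 stood at 6.44 on log2(CPM + 0.5) in that larva against 7.08 to 7.18, and PmetTSAr1.1-004808 at 2.69 against 3.94 to 4.14. PmetTSAr1.1-001287 measured 6.04 in ad libitum replicate 3 against 4.23 to 4.52 in its group. PmetTSAr1.1-007595 measured 4.56 in foundress-reared replicate 4 against 2.05 to 2.31. The cause was not tested for any of them.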

How the results depend on the processing

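No paired analysis was possible because replicate numbers only name larvae. Of the 99 partners, 54 were found again without logs, 55 with a mean of at least 20 CPM (the number of partners that reach that level), 50 in the 8 field and 48 in the 8 laboratory libraries alone, and 54 without the 2 highest libraries and the lowest, a setting chosen after seeing the data. With Spearman coefficients 69 returned, with levels less group means 76, with unadjusted totals 82, with a mean of at least 1 CPM 82, with a pseudocount of 2 94, with RLE scaling 97, and without 1 library 70 to 98. The range of PmetTSAr1.1-000002 was 277-fold with unadjusted totals, 547-fold with RLE, 537-fold and 540-fold with pseudocounts of 2 and 0.1, and 51.3-fold to 539-fold without 1 library. The median range of the 100 was 17.5-fold, 30.9-fold, 17.3-fold and 36.6-fold in the same settings, and 17.1-fold to 30.6-fold without 1 library. DESeq2 called 979 transcripts for caste (13 of the 100), 484 for nutrition, 2172 for the difference of the contrasts (35 of the 100) and 1155 between field and laboratory larvae, where edgeR called 16, 0, 199 and 356. Unadjusted p values under 0.05 among the 100 for nutrition numbered 11, with 6 when no filter was used and 20 with DESeq2. Without the filter 44 were called for the difference of the contrasts, and 0 for caste in the 8 field libraries alone. Without 1 library edgeR called 1 to 46 for caste, 0 to 3016 for nutrition, 0 to 3117 for the difference (0 to 3 of the 100) and 193 to 2277 between field and laboratory; the highest of the last 3 came without restricted replicate 4. The caste difference in the share of counts was -9.08 to -2.35 percentage points without 1 library. Without foundress-reared replicate 1 the exact permutation p was 0.0286, not adjusted over the tests and from fewer assignments. The nutrition log2 fold change of PmetTSAr1.1-000002 was -0.267 to 1.78 without 1 library, and reversed without ad libitum replicate 3. The cause was not tested in any of these. Of 504 recomputed values 430 kept their direction and side of the threshold or stayed near the main count. Among values of the headline results 203 did so, 1 was stronger and 66 moved. Among the other values 227 did so, 6 were stronger and 1 reversed. In simulated counts for the caste comparison over 36337 transcripts, edgeR recovered 7 of 50 changes of 2-fold, 34 of 50 of 4-fold and 45 of 50 of 8-fold. The changed transcripts were drawn at random from all tested and varied independently. The 100 varied alike and mostly more widely, so this recovery does not measure what could be called among them.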
